A study of Homo sapiens with 16 samples.

Results

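The 8 troponin genes were followed by RNA sequencing in G401, a line grown from a kidney rhabdoid tumor and lacking SMARCB1, a core subunit of the SWI/SNF chromatin remodeling complex. They were taken by symbol from the 57820 genes in each library, and the family was selected on its counts and TPM (transcripts scaled by length) in these BRD9 KO and LacZ libraries, by a rule with no threshold: the troponin T genes TNNT1, TNNT2 and TNNT3, the troponin C genes TNNC1 and TNNC2, and the troponin I genes TNNI1, TNNI2 and TNNI3. In 1 arm BRD9, a bromodomain protein, was deleted by CRISPR (BRD9 KO). The study places BRD9 in a SWI/SNF sub-complex without SMARCB1. The other arm received a guide to the bacterial LacZ gene as control (LacZ). Each guide was sampled on days 1, 2, 3 and 5 with 2 libraries a group, 16 libraries in all. The sources used here do not say from which event the days were counted or whether a group's libraries came from separate cultures. The spread between libraries may therefore be partly technical. The study calls the libraries of a group biological replicates. Each standard error below comes from 1 fit that shares its estimate of spread over all 16 libraries. It need not follow the spread of the groups compared. Both arms were made, by its methods, from cells that stably carried Cas9 and then took up a guide vector under drug selection, with no cloning of single cells described, so a library may mix cells with and without the deletion. All libraries come from 1 cell line. BRD9 RNA stood between 34.96% and 40.4% of the LacZ level on the 4 days and was detected in every BRD9 KO library.

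Troponin is the calcium switch of striated muscle. Troponin C binds calcium, troponin I blocks the sliding of actin over myosin until calcium arrives, and troponin T ties both to tropomyosin on the thin filament. Each part comes in forms for slow skeletal, fast skeletal and heart muscle: TNNT1, TNNT3 and TNNT2 for troponin T and TNNI1, TNNI2 and TNNI3 for troponin I, while TNNC1 serves slow and heart muscle and TNNC2 fast muscle. In development the forms mix, as the embryonic heart uses the slow TNNI1 and embryonic skeletal muscle the cardiac TNNT2.

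Most defining markers of skeletal and heart muscle stayed under 1 TPM in these cells. Library totals were 9185850 to 16560717 counts in BRD9 KO and 11252886 to 15430122 in LacZ, so that 3 counts, the floor used here, equal 0.181 to 0.327 CPM, the count scaled to a common library total. The label of the line held: SMARCB1 had 0 counts in 15 libraries and 2 at most, while the keratins KRT8 and KRT18 and vimentin (VIM) were at 1366 to 5427 TPM. Of 7 skeletal muscle markers, MYOD1 and MYH8 were at 0 in all 16 libraries, and MYOG, DES and ACTA1 stayed under 1 TPM. The summed level of that list was 1.14 to 5.3 TPM in BRD9 KO and 1.44 to 6.33 TPM in LacZ libraries, most of it CKM and MYH3. The 7 cardiac markers summed to 0.21 to 4.77 TPM in BRD9 KO and 1.49 to 3.13 TPM in LacZ, with MYH6 at 0. NPPB reached at most 2.8 TPM and MYL7 2.28 TPM. The 5 smooth muscle markers summed to 588 to 996 TPM in BRD9 KO and 661 to 1102 TPM in LacZ, nearly all of it transgelin (TAGLN). CNN1 was at 4.0 to 14.5 TPM, and MYH11, ACTA2 and DES stayed under 1 TPM. Of 5 blood markers 4 were at 0, and the 3 endothelial markers in the files stayed under 1 TPM. The part of these cell types in the values below was not tested beyond these levels. In bulk RNA, fewer cells with a transcript and less of it per cell cannot be told apart.

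On GRCh37 the troponin T and I genes lie in neighboring pairs, and 6 of the 8 members are on the minus strand. TNNT2 (chr1:201328136-201346892) and TNNI1 (chr1:201372912-201398994) have LAD1 between them. TNNT1 (chr19:55644066-55660574) starts 2560 bases from the end of TNNI3 (chr19:55663135-55669141). TNNI2 (chr11:1860211-1862910) and TNNT3 (chr11:1940933-1959936) lie on the plus strand on either side of LSP1. The troponin C genes stand alone, TNNC1 at chr3:52485116-52488057 and TNNC2 at chr20:44451853-44462384. The stretches upstream of TNNT2, TNNI1 and TNNT1 are shown because the data compare the RNA of these genes. TNNT2 and TNNI1 were lower in BRD9 KO cells, and TNNT1 was the most abundant member. Values per gene do not show which start site was used. Each stretch is 160 bases of the GRCh37 reference, read 5′ to 3′ toward the start of the gene's main transcript. It overlaps no annotated exon of that gene. The TNNI1 run lies inside the annotated gene, in an intron of longer TNNI1 transcripts that start farther upstream. Capitals mark matches on either strand to an E-box (CANNTG, the site class of MyoD-like factors), MCAT (CATTCC, the TEAD site), GATA (GATAA), AP-1 (TGANTCA) or a TATA box (TATAAA).
TNNT2 (chr1:201346893-201347052, minus strand): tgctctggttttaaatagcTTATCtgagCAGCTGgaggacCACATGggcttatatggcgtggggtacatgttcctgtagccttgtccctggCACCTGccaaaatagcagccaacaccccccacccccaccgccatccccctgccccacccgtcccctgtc
TNNI1 (chr1:201390859-201391018, minus strand): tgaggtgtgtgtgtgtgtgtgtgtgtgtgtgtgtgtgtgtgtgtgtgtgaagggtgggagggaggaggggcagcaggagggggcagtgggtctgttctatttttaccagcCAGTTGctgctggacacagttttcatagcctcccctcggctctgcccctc
TNNT1 (chr19:55660575-55660734, minus strand): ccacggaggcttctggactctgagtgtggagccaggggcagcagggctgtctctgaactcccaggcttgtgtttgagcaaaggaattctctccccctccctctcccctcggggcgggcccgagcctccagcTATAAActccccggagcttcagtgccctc
For TNNT2, 84 bases next to the start of its main transcript lie inside the annotated gene and are left out, and for TNNI1 and TNNT1 the run ends at the start itself. The full 250 bases before the start were searched in 18905 genes. An E-box was found in 56.3% of all these windows and in those of all 6 troponin T and I genes. MCAT stood in 9.7% of all windows and in those of TNNT2 and TNNT3. GATA stood in 15.7% of all windows and in those of TNNT2 and TNNI3, TATA in 9% and in those of TNNT1 and TNNI2, and AP-1 in 4.7% and in none of these 6. The TNNT2 window held 4 E-boxes, at 216, 204, 153 and 41 bases before the start, with the MCAT match at 81 and the GATA match at 225. The nearest E-box of TNNI1 was at 50 bases. These matches are letters in the reference only.

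Slow skeletal TNNT1 and slow and cardiac TNNC1 were by far the most abundant members. Per transcript length TNNT1 was at 224 to 280 TPM over the 16 libraries (median 253) and TNNC1 at 72.7 to 129 TPM (median 107), and TNNT1 was above TNNC1 in all 16. Cardiac TNNT2 followed with 9.35 to 26.4 TPM (median 20.0), above fast TNNC2 with 7.38 to 18.1 TPM (median 13.4) in 15 of 16 libraries. TNNC2 and slow TNNI1 did not separate: TNNI1 ranged from 5.6 to 19.8 TPM (median 10.1) and TNNC2 was higher in 10 of 16 libraries. TNNI1 exceeded cardiac TNNI3 (3.5 to 9.78 TPM, median 7.69) in 12 of 16. Fast TNNT3 was at 0 to 2.44 TPM and at 0 in 3 libraries. Fast TNNI2 had a single count, in the second LacZ library of day 2, and none in the other 15 libraries, under the floor of 3 counts everywhere. Summed by part, troponin T made 61.7% to 73.0% of the family's TPM, troponin C 22.9% to 33.5% and troponin I 2.5% to 6.58%, so the inhibitory part was the scarcest in every library.

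**Figure D1:**
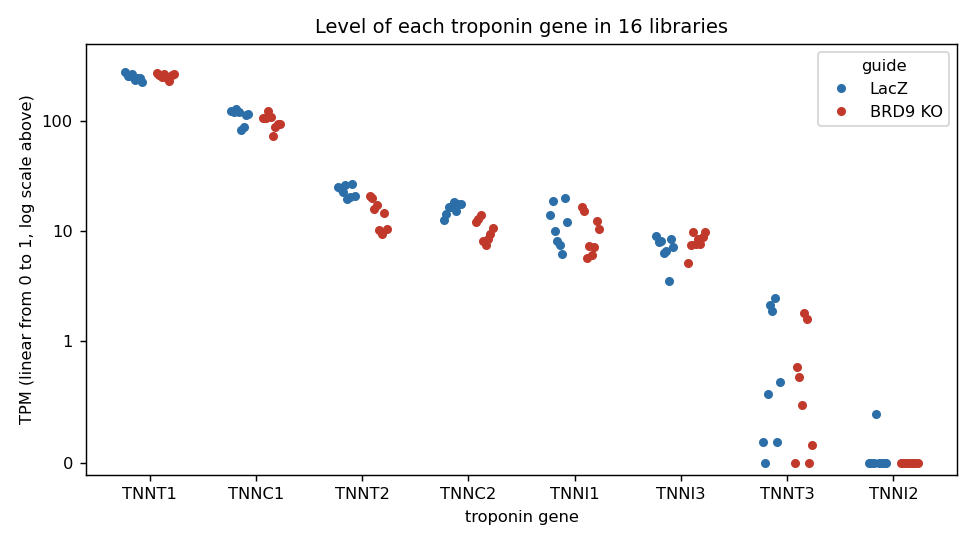
Level of the 8 troponin genes in TPM (vertical axis, linear from 0 to 1 and logarithmic above) in the 8 LacZ and 8 BRD9 KO libraries, 1 point a library, with genes ordered by median. TNNT1 (224 to 280 TPM) and TNNC1 (72.7 to 129 TPM) stand above the other 6 genes in every library, and TNNI2 is at 0 in 15 of 16.

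The first comparison set the family in BRD9 KO cells beside LacZ cells of the same day. The family was proposed with results of these libraries known, so its differences here and over time are given as a description with their standard errors. No p is given for a member, and nothing is read from the calls, which are counted beside the share of all genes called. A filter on low counts left 15027 genes, among them 7 of the 8 members. TNNI2 did not pass. TNNT3 passed narrowly, only through LacZ libraries of days 2 and 3. It reached at most 12 counts (1.02 CPM) in a LacZ and 9 counts (0.67 CPM) in a BRD9 KO library. A gene was called when edgeR's adjusted p over all 15027 genes was under 0.05. On day 1 no member was called, against 0.539% of all genes. None was called that day by limma on TPM or by DESeq2, which gave 6 of the members no adjusted p. On day 2 TNNT2 was called, against 2.7% of all genes. On day 3 it was TNNT2, TNNC2 and TNNI1, against 10.4%. On day 5 TNNT2, TNNC2, TNNI1 and TNNC1 were called lower and TNNT1 higher, against 15% of all genes. Over the mean of the 4 days TNNT2, TNNC2, TNNI1 and TNNC1 were called, all lower, against 20.2% of all genes, and TNNI1 was not called there by limma on TPM. For the difference between late days (3 and 5) and early days (1 and 2) it was TNNT2 alone, against 7.41%.

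Cardiac TNNT2 was the member with the steadiest difference. BRD9 KO libraries had 11.3 and 11.1 CPM of TNNT2 on day 1, 8.12 and 8.8 on day 2, 5.01 and 5.56 on day 3, and 7.45 and 5.96 on day 5. LacZ libraries had 13.1 and 14.4 CPM of TNNT2 on day 1, 12.6 and 13.8 on day 2, 11.3 and 11.5 on day 3, and 15.1 and 12.8 on day 5. Both BRD9 KO libraries were below both LacZ libraries on each of the 4 days, which 2.81% of all genes tested also showed. TNNT2 stood at 81.3% of the LacZ level on day 1, 64.1% on day 2, 46.3% on day 3 and 48.0% on day 5. The log2 fold changes of TNNT2 were -0.30 ± 0.12 (SE), -0.64 ± 0.12, -1.12 ± 0.14 and -1.09 ± 0.13 on days 1, 2, 3 and 5. The day 2 call was lost in limma on TPM, without the first BRD9 KO library and without the second LacZ library of that day. DESeq2 gave TNNT2 no adjusted p on day 2. With 1 library left out, the log2 fold change of TNNT2 ranged from -1.19 to -1.04 on day 3 and from -1.24 to -0.91 on day 5. As a share of troponin T, TNNT2 made 8.47% ± 0.469 (SD, n = 2) of TPM in LacZ on day 1 and 9.09% ± 0.93 on day 5, and 7.1% ± 0.091 and 4.54% ± 1.05 in BRD9 KO.

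**Figure D2:**
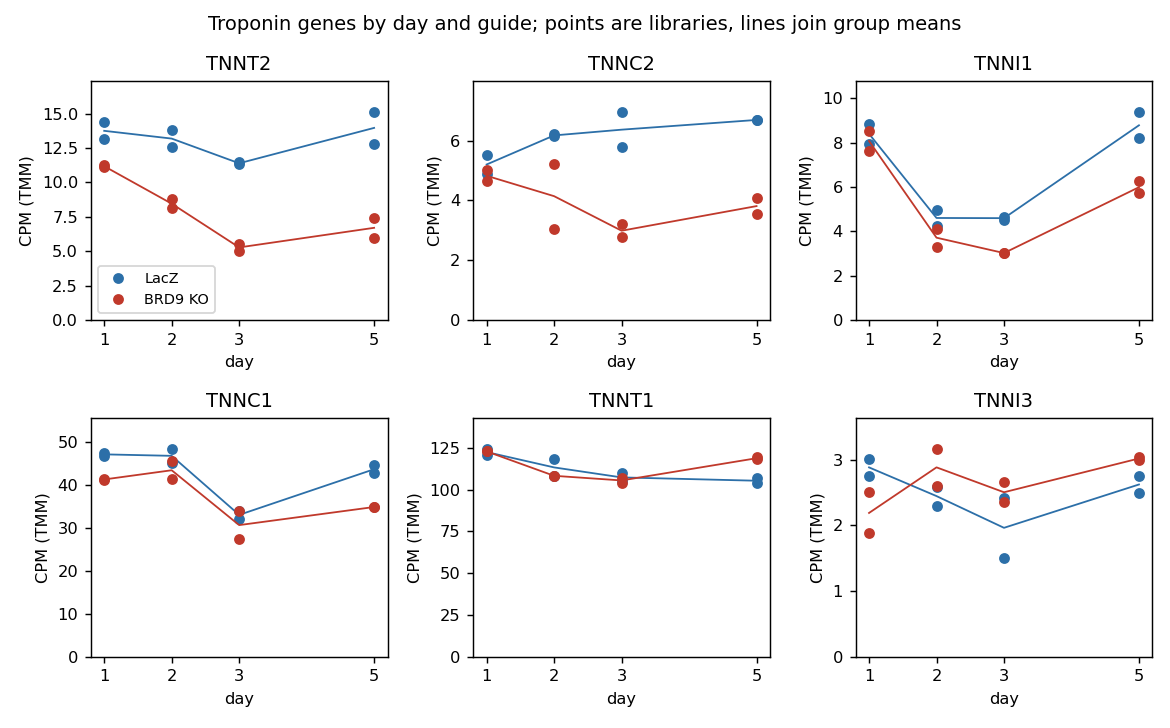
CPM after TMM scaling (vertical axes, from 0) against day for 6 troponin genes, with 1 point a library (2 a group) and lines through group means. TNNT2 in BRD9 KO lies under LacZ on all 4 days, TNNC2 and TNNI1 separate after day 1, and TNNI1 dips on days 2 and 3 under both guides.

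Fast TNNC2, which in muscle pairs with the fast troponins that were nearly absent here, was next. TNNC2 was at 4.64 and 5 CPM on day 1, 5.23 and 3.05 on day 2, 2.78 and 3.2 on day 3, and 3.54 and 4.08 on day 5 in BRD9 KO libraries. In LacZ libraries TNNC2 was at 4.89 and 5.51, 6.21 and 6.14, 6.95 and 5.78, and 6.7 and 6.68 CPM on the same days. The guides overlapped on day 1 and did not overlap from day 2 on. Both BRD9 KO libraries were below both LacZ libraries in 20.6%, 21.8%, 25.9% and 27.2% of all genes on days 1, 2, 3 and 5, so such separation on a single day was common. On day 2 the BRD9 KO libraries of TNNC2 differed from each other more than in any other group. The log2 fold changes of TNNC2 were -0.10 ± 0.20 (SE), -0.54 ± 0.20, -1.10 ± 0.21 and -0.80 ± 0.20, so its level was 46.9% of LacZ on day 3 and 57.0% on day 5. On day 2 the value of TNNC2 was -1.02 without the first BRD9 KO library and -0.24 without the second. The day 5 call was lost with DESeq2 and without either first library of that day.

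Slow TNNI1 was at 8.51 and 7.64 CPM in BRD9 KO and 7.95 and 8.85 in LacZ libraries on day 1, with the guides overlapping. On day 2 TNNI1 was at 3.3 and 4.13 CPM in BRD9 KO and 4.95 and 4.26 in LacZ, on day 3 at 3.02 and 3.03 against 4.52 and 4.67, and on day 5 at 6.27 and 5.72 against 9.38 and 8.2. Both BRD9 KO libraries were the lower ones on days 2, 3 and 5, with the shares of all genes as given for TNNC2. The log2 fold changes of TNNI1 were -0.07 ± 0.14 (SE), -0.33 ± 0.18, -0.60 ± 0.18 and -0.56 ± 0.15. The day 3 call of TNNI1 was lost in 10 of 12 alternatives, and limma on TPM gave -0.03 there. RSEM's effective length for TNNI1 on day 3 was 1007 and 1269 bases in the LacZ and 851 and 707 in the BRD9 KO libraries, which enters TPM and not the counts. The day 5 call of TNNI1 was lost in 5 of 12 alternatives, DESeq2 and limma on TPM among them.

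TNNC1, the troponin C of slow and heart muscle, was at 41.3 and 41.4 CPM in BRD9 KO and 47.5 and 46.9 in LacZ libraries on day 1. On day 2 TNNC1 was at 45.6 and 41.4 CPM against 48.5 and 45.3, on day 3 at 27.5 and 33.9 against 32.2 and 34.0, and on day 5 at 34.88 and 34.99 against 42.9 and 44.6. The guides were apart on days 1 and 5 and overlapped on days 2 and 3. The log2 fold changes of TNNC1 were -0.19 ± 0.07 (SE), -0.10 ± 0.07, -0.13 ± 0.08 and -0.32 ± 0.07, a level of 79.9% of LacZ on day 5. The day 5 call was lost without the second LacZ library of that day.

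Slow TNNT1 differed little between the guides. TNNT1 was at 123 and 123 CPM in BRD9 KO and 124 and 121 in LacZ libraries on day 1, at 108 and 108 against 108 and 118 on day 2, and at 107 and 104 against 105 and 110 on day 3. On day 5 TNNT1 was at 118 and 119 CPM in BRD9 KO and 107 and 104 in LacZ, with both BRD9 KO libraries above, as in 27.3% of all genes. Its log2 fold changes were 0.01 ± 0.04 (SE), -0.06 ± 0.04, -0.02 ± 0.04 and 0.17 ± 0.04, and the day 5 call was lost in limma on TPM and without either second library of that day. Thus on day 5 the 2 more abundant troponin T genes lay on opposite sides of 0, TNNT1 at 112.8% and TNNT2 at 48.0% of LacZ.

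Cardiac TNNI3 and fast TNNT3 were called on no day. TNNI3 was at 1.88 to 3.17 CPM (median 2.63) in the 8 BRD9 KO and 1.5 to 3.02 CPM (median 2.54) in the 8 LacZ libraries, 17 to 50 counts a library. Its log2 fold changes were -0.37 ± 0.26 (SE), 0.24 ± 0.26, 0.36 ± 0.27 and 0.20 ± 0.26 on the 4 days, intervals too wide to place it on either side. TNNI3 also shares 3017 bases and its strand with the transcript CTD-2587H24.4, which held at most 3 counts a library, and RSEM's posterior standard deviation for TNNI3 reached 1.56 reads. TNNT3 had 28 counts over the 8 BRD9 KO and 41 over the 8 LacZ libraries. Its standard error was 0.68 to 1.57 on the log2 scale on the 4 days, so a difference was not detectable at this depth. TNNT3 passed the filter only through LacZ libraries, so no difference between the guides is read from these counts.

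**Figure D3:**
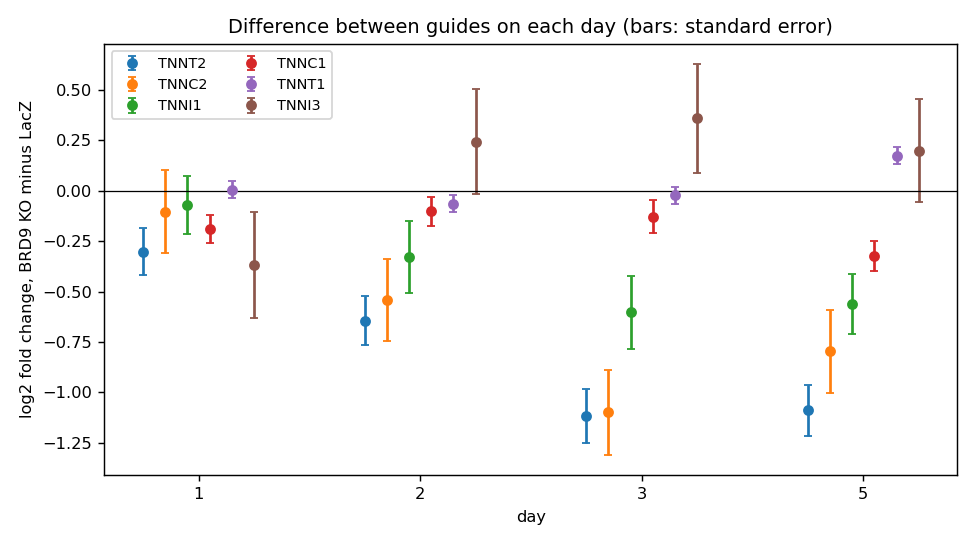
Log2 fold change of BRD9 KO minus LacZ (vertical axis) on each day for 6 troponin genes, with standard errors as bars, from edgeR's fit over 2 libraries a group. TNNT2 goes from -0.30 on day 1 to -1.09 on day 5 and TNNT1 stays between -0.06 and 0.17.

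The second comparison, within 1 guide, asked how the family moved over the days in culture. Only day 5 against day 1 in LacZ was a planned contrast of this kind, and those with day 3 were added after seeing the data. These contrasts use the same libraries as the comparison of the guides, and days and cultures cannot be told apart. Between days 1 and 5 in LacZ cells TNNT1 had a log2 fold change of -0.22 ± 0.04 (SE) and was the only member called by edgeR, against 25.6% of all genes.

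TNNI1 and TNNC1, not called between days 1 and 5, dipped on day 3. TNNT1 did not recover, with group means of 107 CPM on day 3 and 105 on day 5. In LacZ cells 4 of the 7 members that passed the filter were called between days 1 and 3, against 35.2% of all genes. The log2 fold change of this step was -0.87 ± 0.15 (SE) for TNNI1, -0.51 ± 0.07 for TNNC1 and -0.19 ± 0.04 for TNNT1, the last not called by limma on TPM. The fourth was TNNT3, given below. From day 3 to day 5 in LacZ cells TNNI1 had 0.94 ± 0.16 and TNNC1 0.40 ± 0.08, the only members called, against 15.5% of all genes. With DESeq2 TNNI1 had no adjusted p for that step.

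In BRD9 KO cells 5 members were called from day 1 to day 3, all lower on day 3, against 37.8% of all genes. They were TNNI1 with a log2 fold change of -1.40 ± 0.17 (SE), TNNT2 with -1.09 ± 0.14, TNNC2 with -0.71 ± 0.22, TNNC1 with -0.45 ± 0.08 and TNNT1 with -0.22 ± 0.04. The call of TNNC2 was lost with DESeq2 and without the second day 1 or the first day 3 library. In LacZ cells the same step gave -0.27 ± 0.11 for TNNT2 and 0.29 ± 0.19 for TNNC2, neither called. Whether this step differed between the guides was not tested. From day 3 to day 5 in BRD9 KO cells TNNI1 had 0.98 ± 0.17 and TNNT1 0.17 ± 0.04, and both were called together with TNNT3, against 20.9% of all genes. The call of TNNI1 was lost in limma on TPM, and that of TNNT1 there and without the second day 5 library. TNNI1 was thus at its lowest on days 2 and 3 under both guides and stood on day 5 at 8.79 ± 0.84 CPM (SD, n = 2) in LacZ and 5.99 ± 0.39 in BRD9 KO cells.

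**Figure D4:**
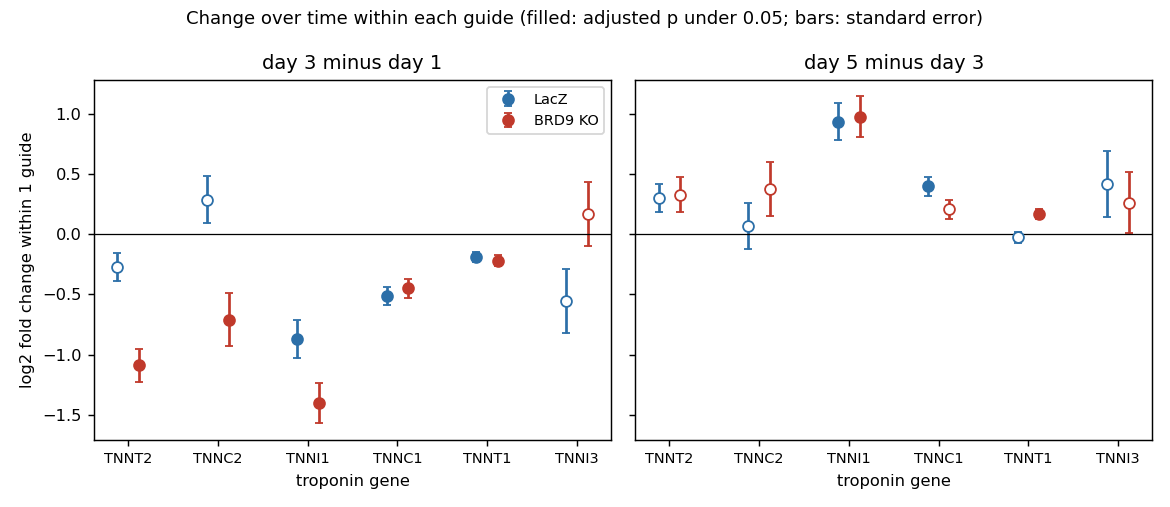
Log2 fold change within each guide (vertical axis) from day 1 to 3 (left) and from day 3 to 5 (right) for 6 troponin genes, with standard errors as bars and filled points for members called. TNNI1 is lower on day 3 than on days 1 and 5 under both guides, while TNNT2 has -1.09 in BRD9 KO and -0.27 in LacZ from day 1 to 3.

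Fast TNNT3 stood at the edge of detection. In LacZ cells TNNT3 had 1 count on day 1, 16 on day 2, 19 on day 3 and 5 on day 5, summed over 2 libraries. In BRD9 KO cells TNNT3 had 3, 7, 17 and 1. Day 3 against day 1 in LacZ was a ratio of 21.6 (95% exact interval 3.43 to 896, counting error only) and in BRD9 KO 4.82 (1.39 to 25.7), and day 3 against day 5 in BRD9 KO was 16.3 (2.55 to 680). TNNT3 passed the filter only through its higher counts in LacZ libraries of days 2 and 3, and the comparisons with day 3 were added after seeing the data. These intervals therefore test nothing, and no change is read from them. The edgeR calls of TNNT3 for the first and the last of these ratios say nothing further, and each was lost without single libraries.

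Patterns over the 8 group means were compared as a description, each group being 2 libraries that share guide and day. Of the members, TNNT2 and TNNC2 were the most alike (Pearson r = 0.93 of log2 CPM), followed by TNNT2 and TNNC1 (0.75), while TNNT1 and TNNT3 were the least alike (-0.74). TNNT3 had 0 to 12 counts a library and passed the filter only through LacZ libraries of days 2 and 3. Every r with TNNT3 in this paragraph thus rests on counts near the floor, and no pattern is read from it. Among the other genes tested, those nearest to TNNT2 were GRB7, HNRNPA1P8 and PLAC8 (r = 0.98, 0.98 and 0.97). For TNNC2 they were RP11-565F19.2, HDGF and XBP1 (0.96, 0.96 and 0.96), for TNNI1 ZNF579, RPS2P5 and CAB39L (0.99, 0.99 and 0.98) and for TNNC1 RP11-242J7.1, HCFC1R1 and PFKL (0.99, 0.98 and 0.98). For TNNT1 they were TRIM45, RENBP and DACT3 (0.99, 0.98 and 0.98), for TNNI3 PHYHD1, TMEM127 and LSMEM1 (0.95, 0.93 and 0.93) and for TNNT3 RSPRY1, FIP1L1 and PSMA6 (0.99, 0.99 and 0.98). The number of the 15020 other genes with an r over 0.9 was 161 for TNNC1, 111 for TNNI1, 76 for TNNT3, 71 for TNNT2, 39 for TNNT1, 24 for TNNC2 and 14 for TNNI3. Of 15 genes that overlap or adjoin a troponin gene and are in the files, 8 passed the filter, and on day 5 PHLDA3, beyond TNNI1, rose by 0.15 ± 0.03 (SE, adjusted p = 0.0018, edgeR) and PPP1R12C, beside TNNT1, by 0.20 ± 0.06 (adjusted p = 0.0253). The share of all genes called higher that day was 7.53%. None of the 8 was called lower, with SEMA3G at -0.38 ± 0.34, MRPL23 at -0.18 ± 0.07 and UBE2C at -0.12 ± 0.05. SNX21, which starts 53 bases beyond the annotated span of TNNC2 on the other strand, had 0.10 ± 0.08 (adjusted p = 0.491, edgeR). The main TNNC2 transcript starts well inside that span, at chr20:44455951. The long noncoding gene ENSG00000286600 covers 18747 bases of TNNT2 on its strand, introns included, and has no values here. Whether any of its reads were counted as TNNT2 was not tested.

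The third comparison set the troponins beside other genes of the contractile apparatus on day 5, in 6 lists of 129 genes, of which 64 passed the filter, 11 were called higher and 11 lower in BRD9 KO cells, against 7.53% and 7.44% of all genes. Of 8 tested thin filament partners 5 rose and LMOD1, a leiomodin that nucleates actin filaments, fell, with a list median of 0.19 against 0.00 over all genes. The tropomyosins, which troponin T binds, rose by little: TPM1, the most abundant, by 0.08 ± 0.01 (SE, adjusted p = 0.000326, edgeR), TPM2 by 0.25 ± 0.03 (adjusted p = 3.48e-06) and TPM4 by 0.25 ± 0.02 (adjusted p = 5.42e-09). LMOD1 fell by 1.19 ± 0.28 (adjusted p = 0.00598), from 4.35 ± 1.41 CPM (SD, n = 2) in LacZ to 1.94 ± 0.59. Of the 18 thick filament genes only MYL6B and MYH3 passed the filter, and the light chain MYL6B fell by 0.25 ± 0.06 (adjusted p = 0.00424), a call that DESeq2 did not make.

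In the Z-disc and titin list, of which 10 genes were tested, the small heat shock protein CRYAB rose by 0.46 ± 0.02 (SE, adjusted p = 2.45e-11, edgeR). The ankyrin repeat protein ANKRD2 fell by 1.59 ± 0.34 (adjusted p = 0.00256), and the list median was -0.11. Of 10 calcium handling genes SLC8A1, the sodium-calcium exchanger, fell by 0.52 ± 0.04 (adjusted p = 3.1e-08), and CALM2, a calmodulin and the most abundant, was at 0.01 ± 0.03 (adjusted p = 0.93). Of 14 muscle transcription factors SIX4 rose by 0.37 ± 0.06 (adjusted p = 0.000175) and MEF2D by 0.26 ± 0.05 (adjusted p = 0.002), while TEAD4 fell by 0.18 ± 0.05 (adjusted p = 0.0334). TEAD1, the most abundant factor of that list, was at 0.03 ± 0.02 (adjusted p = 0.567).

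Of 20 smooth muscle and non-muscle regulators 2 rose and 6 fell, with a median of 0.01. TAGLN2 rose by 0.53 ± 0.08 (SE, adjusted p = 0.000123, edgeR) and tropomodulin 3, TMOD3, by 0.23 ± 0.04 (adjusted p = 0.00118). TAGLN fell by 0.23 ± 0.02 (adjusted p = 1.39e-06), the non-muscle myosin MYH10 by 0.18 ± 0.02 (adjusted p = 3.72e-05) and the light chain MYL6, the most abundant, by 0.13 ± 0.02 (adjusted p = 0.00023).

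**Figure D5:**
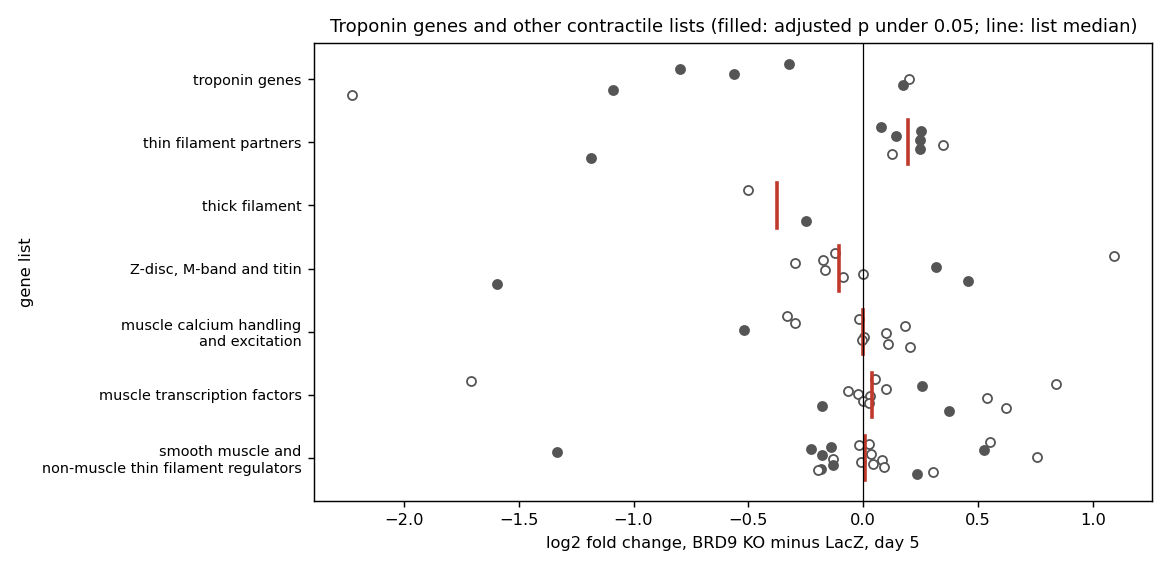
Log2 fold change of BRD9 KO minus LacZ on day 5 (horizontal axis) for the tested genes of the troponin family and of 6 contractile lists (rows), 1 point a gene, filled where the adjusted p was under 0.05, with a line at the median of each list except the troponins. TNNT2 lies at -1.09 and TNNT1 at 0.17, and 5 of 8 thin filament partners are filled to the right of 0.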

How the data were processed

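RNA was sequenced from G401 cells with a BRD9 or LacZ guide. Per the labels and methods, the authors made libraries with a NEBNext Ultra kit, aligned reads to hg19 with STAR and quantified genes with RSEM. Tool versions and counting strand are not given in the sources used here. The deposited expected counts are estimates of reads per gene, and the deposited TPM values scale them by transcript length. Expected counts were rounded to whole numbers, scaled by TMM and tested with edgeR's quasi-likelihood F-test (version 4.0.16, R 4.3.3) in a model of 8 group means, which left 8 residual degrees of freedom. The filter was filterByExpr with min.count 10 and min.total.count 15. A standard error is the log2 fold change divided by the root of F. The pipeline was tested on simulated data.

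Members and lists were chosen with earlier results of these data known. Besides the members and BRD9, the text names cell type markers, the most abundant gene of each list and up to 3 called on day 5 per direction with the smallest p, neighbors, and the 3 genes most like each member. Alternatives were DESeq2 1.42.0, its size factors, other filters, limma 3.58.1 on log2 of TPM plus 1 or 0.1, only the contrast's libraries, a replicate block and each library left out. Sequences were read from GRCh37 with GENCODE release 44 starts. A gene that the naming rule picks and the windows upstream of the troponin C genes are not reported here.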

Additional observations from a re-analysis of the deposited data

Results flagged for a closer look

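The difference of TNNT2 between BRD9 KO and LacZ cells was larger on days 3 and 5 than on days 1 and 2, by -0.63 ± 0.13 (SE) on the log2 scale. The difference between the early and late effects is what drew attention to it, and since the family was selected on these libraries it is a description. All 4 BRD9 KO libraries of days 3 and 5 were lower than all 4 of days 1 and 2. This split leaves out the LacZ libraries, and the share of all genes that showed it was not counted, so nothing is read from it. EdgeR's call was lost in limma on TPM, and DESeq2 gave TNNT2 no adjusted p. No group had enough libraries for a search for outlying samples.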

How the results depend on the processing

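Most values moved little: of 180 alternative counts of called genes 158 stayed within 1.5 times the count given. Of 1072 values of single troponin genes 999 were counted as unchanged. Between the guides this meant a log2 fold change within 1 standard error of the one given, whether or not the call held. Calls lost as given above can therefore be among them. Within 1 guide it meant the same direction and side of the threshold. With DESeq2 the members called were 0 on day 2, 3 on day 5, 0 for late minus early days, 1 for LacZ day 5 minus day 3 and 1 for BRD9 KO day 5 minus day 3; DESeq2 gave 6, 1, 5, 4 and 4 members no adjusted p in these contrasts. With limma on TPM, at a pseudocount of 1 or 0.1, they were 0, 3 and 0 for day 2, day 5 and late minus early days and 1 for BRD9 KO day 5 minus day 3. Leaving out 1 library gave 0 to 1 on day 2, 2 to 3 on day 3, 3 to 4 on day 5, 1 to 2 for late minus early days and 1 to 3 for BRD9 KO day 5 minus day 3. In the lists, the day 5 count was 0 for the thick filament with DESeq2 and 2 for calcium handling with no filter, and the count over the mean of 4 days was 1 for muscle transcription factors with DESeq2. The cause was not tested. Uncalled LacZ values near 0 changed sign: for day 5 minus day 1, TNNI1 was -0.0518 and TNNT2 -0.0735 at a pseudocount of 1, TNNI1 -0.0563 and TNNT2 -0.0767 at 0.1, and with 1 library left out TNNI1 ranged from -0.0381 to 0.152 and TNNT2 from -0.103 to 0.128. For day 5 minus day 3, TNNC2 ranged from -0.0551 to 0.216 and TNNT1 from -0.0519 to 0.00562.

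Replicate numbers did not pair the samples, as deviations of same-numbered BRD9 KO and LacZ libraries correlated at -0.0123, -0.0483, -0.0246 and -0.0177 on the 4 days. With the replicate number as a block the members called were 0, 1, 2 and 5 on days 1, 2, 3 and 5, TNNI1 being lost on day 3, and no other call of a member changed.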
